A study of Homo sapiens with 8 samples.

Results

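The clustered protocadherins are cell-surface adhesion molecules of the cadherin superfamily whose genes stand in 3 tandem arrays, named alpha, beta and gamma, on the long arm of chromosome 5. The members were taken by name, as every gene whose symbol begins with PCDHA, PCDHB, PCDHGA, PCDHGB or PCDHGC and ends in its number. This gave 54 of the 60282 genes listed, namely 16 in the alpha cluster, 16 in the beta cluster and 22 in the gamma cluster, the last with 12 genes of A type, 7 of B type and 3 of C type. All 54 had a count in at least 1 library. One of the alpha members, PCDHA14, is annotated as a transcribed pseudogene.

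The cells were SK-UT-1, an established human uterine leiomyosarcoma line, that is, cells of a malignant tumor of uterine smooth muscle kept in culture. A total of 4 samples received TP-472, an inhibitor of the bromodomains of BRD9 and BRD7, at 5 µM for 48 h, and 4 received the DMSO vehicle. BRD9 is a subunit of the non-canonical BAF chromatin remodelling complex. RNA was sequenced from total RNA, and the 8 libraries held between 32574716 and 38545695 estimated counts. The labels number the replicates of each group from 1 to 4 but do not say whether they were separate cultures from separate days, so the p-values measure the spread between these libraries, which may be technical. The study's methods speak of biological replicates for its experiments in general. All libraries come from 1 cell line, and the vehicle cells differ from the treated cells in the compound alone as far as the labels tell.

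Each variable exon of these clusters has its own promoter, and a cell reads out only some of them. In the alpha and gamma clusters the chosen variable exon is spliced to 3 constant exons that all members of the cluster share and that encode the common cytoplasmic tail, whereas a beta gene is complete in 1 large exon and has no constant part. The proteins bind themselves across cell contacts and are best known from neurons, in which the combination of isoforms allows branches of the same cell to recognise each other. Promoter choice is known to depend on DNA methylation and on loops made by CTCF and cohesin between promoters and distal enhancers.

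On GRCh38 the alpha genes lay at chr5:140786136-141012347, the beta genes at chr5:141051135-141249365 and the gamma genes at chr5:141330571-141512981, all on the plus strand. The 3 constant exons of the alpha cluster were annotated in 15 of the 16 alpha members, PCDHA14 being the exception, and measured 59, 89 and 2718 bases. The 3 constant exons of the gamma cluster were annotated in all 22 gamma members and measured 59, 89 and 2033 bases. The first constant exon of each cluster is printed to show the sequence that each array joins to every variable exon. The alpha exon lies at chr5:140978949-140979007 and the gamma exon at chr5:141494807-141494865, both 5′ to 3′ on the plus strand of GRCh38.
alpha first constant exon: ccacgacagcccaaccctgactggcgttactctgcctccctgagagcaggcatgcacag
gamma first constant exon: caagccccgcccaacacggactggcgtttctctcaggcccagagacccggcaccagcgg

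A read that falls in a constant exon fits every member annotated with it, and the estimated counts divide such reads among them. Counted over the 31-base words of the annotated transcripts, a median of 44.0% of the words of an alpha member occurred in no other gene (range 0.0 to 72.1%). The median was 77.25% in the beta cluster (range 41.6 to 94.4%) and 54.9% in the gamma cluster (range 26.6 to 62.0%). PCDHA14 had no word of its own. Beta members shared words with each other (41.9% of the words of PCDHB10 and 56.1% of those of PCDHB8 occurred in another member) and, for 5.57 to 22.6% of their words, with genes that are not members. The values of single members are therefore uncertain in how reads were split. A sum over a cluster does not depend on the split within it, but still depends on how reads were divided with other genes, such as the pseudogenes of the arrays.

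Promoter sequence was given for 47 of the 54 members in the RefSeq table (GRCh38.p14), as 250 bases before the annotated start and 50 bases after it. The letters CGCT, the short core known from protocadherin promoters, occurred on the printed strand within the 100 bases before the start in 44 of these 47, against 28.1% of all 35116 promoters. By cluster these were 12 of 13 alpha, 13 of 14 beta and 19 of 20 gamma promoters. Letters this common among all promoters can match by chance, so a match alone does not show a working core. The core stood at a median of 51.5 bases before the start in the alpha promoters with a core, 62 bases in the beta and 49 bases in the gamma promoters. Only these 100 bases were searched, and of several matches the nearest to 50 bases before the start was taken. The medians are therefore partly set by the search and do not show a fixed position. TATAAA, searched on both strands of the 300 bases, occurred in 6 of the 47 promoters and in 11.5% of all promoters. The 24 bases around the core are shown for 13 of the members described below, since the letters beside the core differ between the clusters. CGCT is in capitals.
PCDHA4: gccacatgatgtCGCTctttacca
PCDHA10: gccaccggatgtCGCTgtcgtcca
PCDHAC1: agaaggtgtggtCGCTcacgttca
PCDHAC2: gagccctcctacCGCTccctttcc
PCDHB2: gacgcggggtggCGCTgcagcctt
PCDHB3: aacgcatggtggCGCTgttgacta
PCDHB9: gccacaaggtggCGCTgcagactg
PCDHB10: gccacacggtggCGCTgcaggcta
PCDHB14: gacacatggtggCGCTacaggata
PCDHGA10: gactctgagcgcCGCTgttcacct
PCDHGA11: ggctctaggcgcCGCTgctcacca
PCDHGB7: gtgcagagcaagCGCTgacgccgg
PCDHGC4: gagcccgggagcCGCTgtctgcca

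The commonest 9 letters over the core were taken from these windows after they had been seen, and each was then searched on both strands of the 300 bases. GGTGGCGCT occurred in 13 of 14 beta promoters, in no alpha or gamma promoter and in 0.501% of all promoters. GATGTCGCT occurred in 9 of 13 alpha promoters, in none of the other clusters and in 0.105% of all promoters. GCGCCGCTG occurred in 10 of 20 gamma promoters, in none of the other clusters and in 1.28% of all promoters. The windows of PCDHAC1 and PCDHAC2 lack GATGTCGCT, and those of PCDHGB7 and PCDHGC4 lack GCGCCGCTG, although all of them hold CGCT. These matches describe the letters and were not tested against the change with TP-472.

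The 250 bases before the start are given in full for the member with the highest mean level of each cluster, PCDHAC2 at chr5:140966226-140966475, PCDHB2 at chr5:141094365-141094614 and PCDHGB7 at chr5:141417427-141417676, each 5′ to 3′ on the plus strand with every CGCT of the last 100 bases in capitals.
PCDHAC2: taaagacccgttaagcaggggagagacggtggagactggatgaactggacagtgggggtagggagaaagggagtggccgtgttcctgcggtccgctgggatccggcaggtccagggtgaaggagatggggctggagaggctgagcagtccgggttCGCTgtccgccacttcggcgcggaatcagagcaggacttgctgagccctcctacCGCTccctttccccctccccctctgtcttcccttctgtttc
PCDHB2: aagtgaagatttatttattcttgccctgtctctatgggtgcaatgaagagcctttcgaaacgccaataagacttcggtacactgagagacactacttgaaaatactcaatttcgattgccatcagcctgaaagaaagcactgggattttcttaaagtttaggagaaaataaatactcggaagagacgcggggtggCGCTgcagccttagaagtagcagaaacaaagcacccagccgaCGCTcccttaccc
PCDHGB7: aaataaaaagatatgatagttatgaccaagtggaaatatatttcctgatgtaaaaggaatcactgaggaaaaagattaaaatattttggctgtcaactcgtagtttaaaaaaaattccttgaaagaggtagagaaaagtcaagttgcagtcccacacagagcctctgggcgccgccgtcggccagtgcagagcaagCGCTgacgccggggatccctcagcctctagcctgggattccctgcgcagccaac

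Vehicle replicate 3 stood apart from the other vehicle libraries. Its median Spearman correlation with its own group over the genes tested was 0.914, against 0.988 to 0.989 for the other vehicle libraries and 0.993 to 0.997 for the TP-472 libraries. The sums, the shares and most fitted changes of the members are therefore given with and without it. Of the smooth muscle markers, CALD1 had the most counts in every library (177.9 to 210.8 CPM), and the list of 9 summed to 438, 478.2, 522.4 and 479.6 CPM in the vehicle libraries and 378.8, 376.9, 372.1 and 369.9 CPM in the TP-472 libraries. CPM stands here and throughout for counts scaled to the library size by the TMM method, and for genes of unequal length it is not a measure of relative abundance. MYH11, the smooth muscle myosin, and MYOCD, a coactivator of the contractile genes, had at most 10 counts in any library. MYH11 had 0, 0, 0 and 1 counts in vehicle and 10, 8, 7 and 10 with TP-472. The other 7 markers passed the filter of 1 CPM described below, among them the actin ACTA2 at 145.4 to 176.4 CPM in vehicle and 104.4 to 112 CPM with TP-472. Of these 7, DES, the muscle intermediate filament (log2 fold change -2.36), LMOD1 (-1.84) and TAGLN (-0.67) were called lower and none higher (42.9% lower, beside 14.9% of all genes). DES and LMOD1 were over 1 CPM in the 4 vehicle libraries and in no TP-472 library, so they passed this filter through the vehicle group, and the count cannot be read as support. Leaving out vehicle replicate 3 gave 4 called lower, with ACTA2 (-0.59) added, beside 13.4% of all genes. The line expressed some smooth muscle markers and had others at or near 0. The part of this difference in the protocadherin values was not tested.

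Neuronal markers were looked at because clustered protocadherins are best known from neurons. The list of 10 summed to 5.5, 5.676, 5.399 and 4.709 CPM in the vehicle libraries and to 2.401, 2.333, 2.546 and 2.451 CPM in the TP-472 libraries, most of it in vehicle from SNAP25, a protein of the vesicle fusion machinery. SNAP25 fell from 4.31 ± 0.275 to 1.41 ± 0.270 CPM (mean ± SD, n = 4 in each group; log2 fold change -1.61, SE 0.180, adjusted p = 3.94e-04). NEFL had no count in any library, and STMN2, ELAVL4 and DCX had at most 1. The part of SNAP25-expressing cells in the protocadherin values was not tested, and in bulk RNA fewer cells of a kind and less RNA per cell cannot be told apart. Endothelial markers summed to between 0.05527 and 0.1433 CPM in the vehicle libraries and between 0.413 and 0.5797 CPM with TP-472, and none of them passed either filter. Leukocyte markers summed to between 7.13 and 8.514 CPM in vehicle and between 9.802 and 12.96 CPM with TP-472, most of it CD68, which was not called. Epithelial markers summed to between 17.47 and 23.01 CPM in vehicle and between 20.34 and 26.73 CPM with TP-472. Of these, the keratin KRT18 was called higher (log2 fold change 1.08, SE 0.136, adjusted p = 7.26e-04), and KRT19 was called lower (-0.85, SE 0.214, adjusted p = 0.0151). The adhesion molecule EPCAM stood at 0.729 ± 0.0981 CPM in vehicle and 0.244 ± 0.0476 CPM with TP-472 and reached the looser filter in 4 vehicle libraries and 1 TP-472 library, so that it entered that test through the vehicle group. The part of these markers in the protocadherin values was not tested.

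The gamma and beta clusters were lower with TP-472 as a whole, and the alpha cluster was close to its vehicle level. The gamma genes together stood at 52.43, 32.94, 67.71 and 32.63 CPM in the vehicle libraries 1 to 4 and at 15.02, 13.8, 15.36 and 19.74 CPM in the TP-472 libraries 1 to 4. The groups did not overlap, and vehicle replicates 1 and 3 were higher than the other vehicle libraries. The gamma sum in TP-472 was 34.4% of that in vehicle (15.98 ± 2.592 against 46.42 ± 16.94 CPM), a log2 ratio of -1.54, or -1.30 without vehicle replicate 3.

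The beta genes together stood at 35.35, 30.93, 36.03 and 36.02 CPM in vehicle and at 19.36, 18.3, 19.07 and 19.63 CPM with TP-472. The groups did not overlap, and within each group the beta sums were closer together than the gamma sums. The ratio of means was 55.2%, a log2 ratio of -0.86, or -0.84 without vehicle replicate 3.

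The alpha genes together gave 6.964, 6.851, 6.323 and 6.11 CPM in vehicle and 5.628, 5.201, 6.392 and 6.482 CPM with TP-472. Here the groups overlapped, TP-472 replicates 3 and 4 lying within the vehicle range. The alpha sum in TP-472 was 90.3% of that in vehicle (log2 ratio -0.15, or -0.16 without vehicle replicate 3). No p-value is given for these sums, because they were taken over chosen genes.

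**Figure D1:**
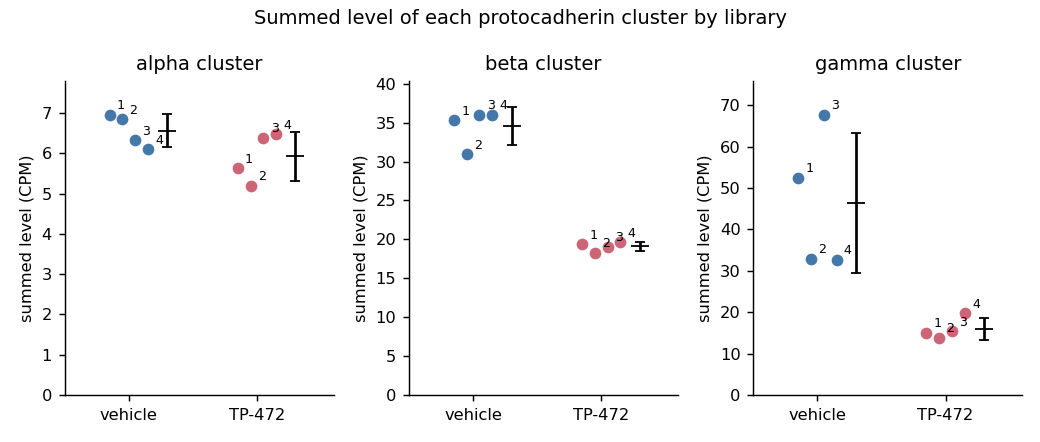
Summed level of the alpha, beta and gamma clusters in CPM (vertical axes, starting at 0) for each library, with the replicate number beside each point and the mean ± SD (n = 4) as a black bar. The groups are apart in the beta and gamma panels, with TP-472 lower, and overlap in the alpha panel.

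Before any filter, the mean of the TP-472 libraries lay below that of vehicle in 40 of the 54 members, that is, in 5 of 16 alpha, 15 of 16 beta and 20 of 22 gamma genes. The groups did not overlap, with TP-472 the lower, in 24 members (44.4%), namely 2 alpha, 10 beta and 12 gamma genes, against 10.9% of all 33192 genes with a count. They did not overlap, with TP-472 the higher, in 3 members, PCDHA2, PCDHA3 and PCDHAC1, against 14.1% of all genes with a count. Many members were low, since 16 of the 54 had fewer than 10 counts in every library and 1, PCDHB1, never had more than 3.

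**Figure D2:**
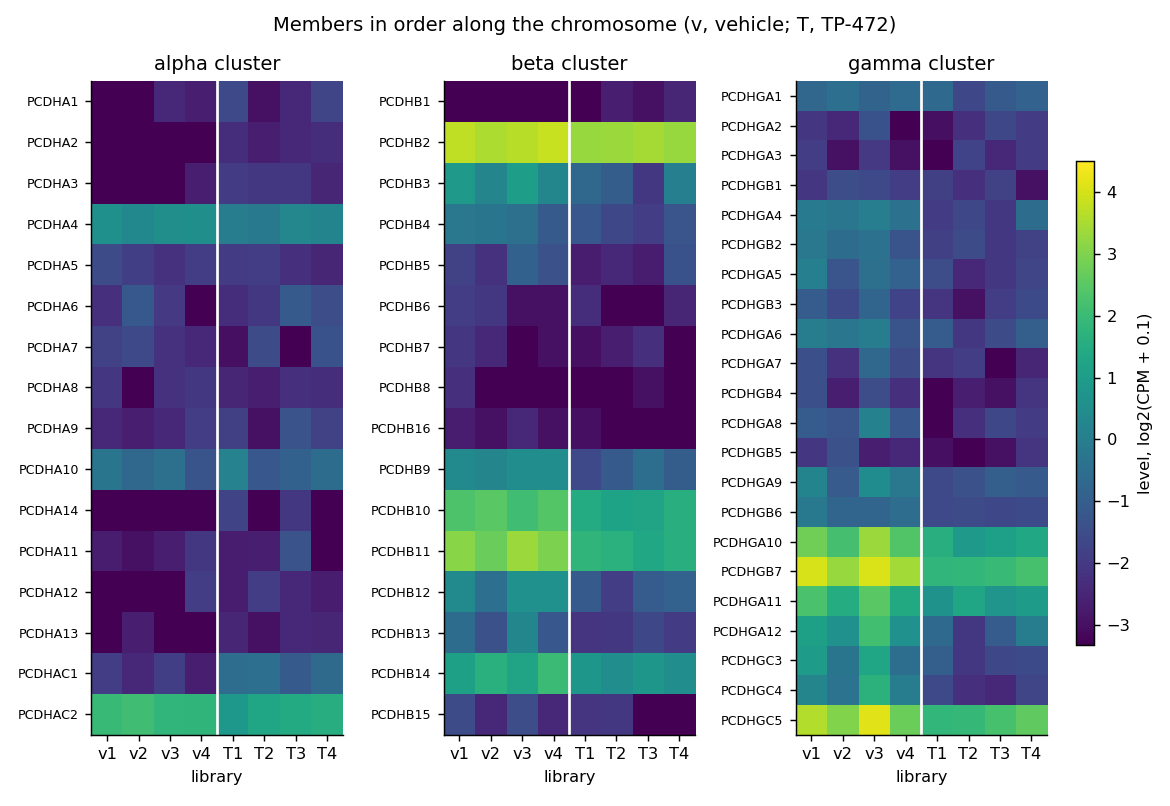
Level of each of the 54 members, as log2(CPM + 0.1), in the 4 vehicle (v) and 4 TP-472 (T) libraries, with genes in order along the chromosome and a white line between the groups. Levels are not per length. PCDHB2, PCDHB10 and PCDHB11 are the brightest beta rows, PCDHGB7 and PCDHGC5 the brightest gamma rows, and the columns of vehicle 1 and 3 are bright in the lower rows of the gamma cluster.

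A filter of more than 1 CPM in at least 4 libraries left 14073 genes for the test, among them 13 members (2 alpha, 6 beta and 5 gamma). Genes were called at an adjusted p below 0.05 with a change of more than 1.5-fold. Of these 13, 11 were called, all lower with TP-472 (1 alpha, 5 beta and 5 gamma), while 14.9% of all genes tested were called lower and 12.0% higher. The count over members that passed cannot be read as support, because 3 of the 13 (PCDHB3, PCDHB9 and PCDHGA12) passed in the vehicle libraries alone and so had to differ. The other 41 members were under this filter. Without vehicle replicate 3 the counts of called members were again 1, 5 and 5, all lower, beside 13.4% of all genes called lower and 12.0% higher. The total of 11 became 8 without vehicle replicate 1, TP-472 replicate 1 or TP-472 replicate 2, 9 without TP-472 replicate 3 and 10 without vehicle replicate 2, and the alpha call was lost in each of these 5 cases. The beta count was lowest, at 3, without TP-472 replicate 2. The median log2 fold change was -0.54 over the alpha, -1.20 over the beta and -1.51 over the gamma members tested, beside -0.026 over all genes tested. The beta and gamma medians include the 3 members that passed in the vehicle libraries alone, so they cannot be read as support either.

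A looser filter, edgeR's own rule for expressed genes (about 0.274 CPM in at least 4 libraries), kept 17129 genes and 27 members (4 alpha, 8 beta and 15 gamma). Of these, 21 were called lower and 1 higher, beside 14.3% and 12.3% of all genes tested. The lower ones were 1 alpha, 7 beta and 13 gamma members. Of the 27, 15 reached that filter's cut in fewer than 4 TP-472 libraries and 1, PCDHAC1, in fewer than 4 vehicle libraries. Without vehicle replicate 3, 20 were called lower and 1 higher, beside 13.5% and 12.8% of all genes. The number called lower was 13 without TP-472 replicate 2, beside 9.41% of all genes, 14 without TP-472 replicate 3 (9.24%), and 15 without vehicle replicate 1 (11.5%) or TP-472 replicate 1 (9.90%). The median log2 fold change of the members tested was -0.16 in the alpha, -1.34 in the beta and -1.53 in the gamma cluster, beside -0.030 over all genes. As 11 of the 15 gamma and 4 of the 8 beta members were kept through the vehicle libraries, neither these counts nor these medians can be read as support.

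**Figure D3:**
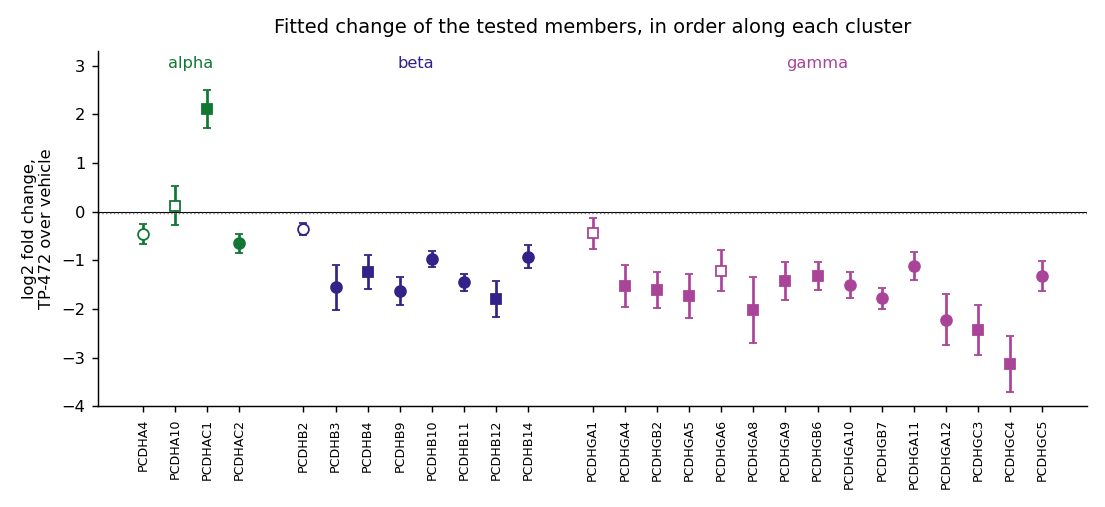
Log2 fold change of TP-472 over vehicle with its SE (vertical axis) for the 27 members tested with the looser filter, in order along each cluster. Filled symbols were called, circles also passed the filter of 1 CPM and squares did not, the dotted line is the median of all genes tested. PCDHAC1 is the 1 member called higher, and all beta and gamma members lie below 0.

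In the gamma cluster, the B-type gene PCDHGB7 had the highest mean over the 8 libraries, with 16.08, 9.689, 16.43 and 10.62 CPM in the vehicle libraries and 3.433, 3.514, 3.847 and 4.559 CPM in the TP-472 libraries. The groups were far apart, the lowest vehicle library standing above the highest TP-472 library by more than the whole TP-472 range. The log2 fold change was -1.78 (SE 0.214, adjusted p = 5.70e-04), and -1.66 without vehicle replicate 3.

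PCDHGC5, a C-type gene, is one of the isoforms that cells are known to express apart from the random choice made among the other members. It measured 11.99, 7.941, 17.76 and 6.531 CPM in vehicle and 3.537, 3.57, 4.594 and 5.955 CPM with TP-472. Although the groups did not overlap, vehicle replicate 4 and TP-472 replicate 4 lay close together. Its log2 fold change was -1.32 (SE 0.326, adjusted p = 0.0140), and -0.998 without vehicle replicate 3 (adjusted p = 0.00577).

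The other C-type gamma genes, PCDHGC3 and PCDHGC4, were under 1 CPM in every TP-472 library and were tested with the looser filter alone. PCDHGC3 measured 1.907, 0.7167, 2.339 and 0.6166 CPM in vehicle and 0.413, 0.1406, 0.2214 and 0.2372 CPM with TP-472, a log2 fold change of -2.43 (SE 0.518, adjusted p = 0.00744), or -2.09 without vehicle replicate 3. PCDHGC4 measured 1.078, 0.688, 3.147 and 0.8689 CPM in vehicle and 0.2323, 0.1124, 0.08302 and 0.2108 CPM with TP-472. In both genes the groups did not overlap, and vehicle replicate 3 was the highest library. PCDHGC4 reached the looser filter in no TP-472 library and PCDHGC3 in 1, so both entered the test through the vehicle group, and their p-values are not independent of that. The log2 fold change of PCDHGC4 was -3.13 (SE 0.578, adjusted p = 0.00390) and -2.44 without vehicle replicate 3. In counts PCDHGC4 went from between 24 and 108.915 in the vehicle libraries to between 2.599 and 9.004 in the TP-472 libraries.

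Of the A-type genes, PCDHGA10 measured 6.881, 4.443, 9.875 and 5.101 CPM in vehicle and 2.917, 1.771, 2.048 and 2.477 CPM with TP-472, without overlap. It fell by 1.51 on the log2 scale (SE 0.281, adjusted p = 0.00409), and by 1.25 without vehicle replicate 3. PCDHGA11, its neighbour beyond PCDHGB7, measured 4.698, 2.752, 5.573 and 2.579 CPM in vehicle and 1.471, 2.305, 1.577 and 1.871 CPM with TP-472. Its lowest vehicle library lay just above its highest TP-472 library, and the change was -1.11 (SE 0.291, adjusted p = 0.0177), or -0.89 without vehicle replicate 3. The call of PCDHGA11 was lost without vehicle replicate 1 or TP-472 replicate 1 or 3 (adjusted p at most 0.0563). PCDHGA12 measured 2.073, 1.462, 4.273 and 1.458 CPM in vehicle and 0.5421, 0.1406, 0.3874 and 0.8959 CPM with TP-472, a change of -2.22 (SE 0.530, adjusted p = 0.0122), or -1.74 without vehicle replicate 3, the highest library. PCDHGA12 passed the filter of 1 CPM in the vehicle libraries alone, and its p-value is not independent of that.

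The remaining gamma members tested with the looser filter were PCDHGA1, PCDHGA4, PCDHGA5, PCDHGA6, PCDHGA8, PCDHGA9, PCDHGB2 and PCDHGB6, all with a vehicle mean under 1 CPM. All of them reached that filter in fewer than 4 TP-472 libraries and were kept through the vehicle libraries. Calls among them therefore cannot be read as support. All but PCDHGA1 and PCDHGA6 were called lower, beside 14.3% of all genes tested. Their changes ran from -1.32 in PCDHGB6 (-1.41 without vehicle replicate 3) to -2.01 in PCDHGA8, the latter with an SE of 0.675 and an adjusted p of 0.0451, which became 0.0622 without vehicle replicate 3. PCDHGA1, the first gene of the array, gave -0.45 (SE 0.315, adjusted p = 0.292) and PCDHGA6 gave -1.21 (SE 0.428, adjusted p = 0.0541). The same genes gave -0.52 and -1.11 without vehicle replicate 3. The other 7 gamma members, PCDHGA2, PCDHGA3, PCDHGA7, PCDHGB1, PCDHGB3, PCDHGB4 and PCDHGB5, had too few counts to be tested, with vehicle means between 0.0917 and 0.326 CPM.

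In the beta cluster, PCDHB2 held the most counts and changed least of the 8 tested. It measured 13.32, 11.61, 12.5 and 14.27 CPM in vehicle and 9.732, 10.01, 10.9 and 9.671 CPM with TP-472. No library overlapped the other group, and the difference was small, with a log2 fold change of -0.36 (SE 0.118, adjusted p = 0.0405), under the limit of 1.5-fold and so not called (-0.37 without vehicle replicate 3). PCDHB11 measured 8.567, 6.479, 9.817 and 7.596 CPM in vehicle and 3.382, 3.12, 2.463 and 2.951 CPM with TP-472. All vehicle libraries of PCDHB11 stood well above all treated ones. Its log2 fold change of -1.44 (SE 0.177, adjusted p = 6.23e-04) became -1.34 without vehicle replicate 3.

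PCDHB10, the neighbour of PCDHB11, measured 4.864, 5.561, 4.216 and 5.241 CPM in vehicle and 2.685, 2.221, 2.297 and 2.978 CPM with TP-472, again without overlap. It fell by 0.96 on the log2 scale (SE 0.165, adjusted p = 0.00280), and by 1.03 without vehicle replicate 3. PCDHB14 measured 2.073, 3.01, 2.252 and 3.896 CPM in vehicle and 1.652, 1.321, 1.66 and 1.318 CPM with TP-472, a change of -0.91 (SE 0.236, adjusted p = 0.0167), or -1.01 without vehicle replicate 3, and the call was lost without TP-472 replicate 2 (adjusted p = 0.0543). Its vehicle libraries spread more widely than its TP-472 libraries, and vehicle replicate 1 came nearest to the treated range.

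PCDHB9 stood at 1.216, 1.089, 1.328 and 1.317 CPM in vehicle and at 0.2323, 0.3655, 0.6088 and 0.3953 CPM with TP-472. PCDHB3 stood at 1.796, 1.089, 1.935 and 1.093 CPM in vehicle and at 0.5163, 0.3936, 0.1384 and 0.9486 CPM with TP-472. Neither overlapped, but TP-472 replicate 4 of PCDHB3 came close to the lowest vehicle library. The log2 fold changes were -1.62 for PCDHB9 (SE 0.277, adjusted p = 0.00275) and -1.55 for PCDHB3 (SE 0.464, adjusted p = 0.0296). They were -1.59 and -1.39 without vehicle replicate 3. PCDHB3 lost its call without vehicle replicate 1 or TP-472 replicate 1 or 2 (adjusted p between 0.0698 and 0.0837). Both PCDHB3 and PCDHB9 passed the filter of 1 CPM in the vehicle libraries alone. With the looser filter PCDHB4 (-1.24, adjusted p = 0.0233; -1.25 without vehicle replicate 3) and PCDHB12 (-1.79, adjusted p = 0.00632; -1.71 without it) were also called lower, beside 14.3% of all genes tested. PCDHB4 and PCDHB12 reached that filter in fewer than 4 TP-472 libraries. Their calls, like those of PCDHB3 and PCDHB9, therefore cannot be read as support. The other 8 beta members were too low to be tested.

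In the alpha cluster, PCDHAC2, the C-type gene nearest to the constant exons, had the highest CPM in every library. It measured 3.841, 4.214, 3.436 and 3.392 CPM in vehicle and 1.704, 2.333, 2.657 and 2.846 CPM with TP-472. The groups did not overlap, and the log2 fold change was -0.64 (SE 0.193, adjusted p = 0.0304), or -0.68 without vehicle replicate 3. The call was lost when any of vehicle replicates 1 and 2 and TP-472 replicates 1, 2 and 3 was left out (adjusted p between 0.0568 and 0.0794). PCDHA4 measured 1.409, 1.147, 1.357 and 1.373 CPM in vehicle and 0.9035, 0.7871, 1.135 and 1.054 CPM with TP-472, a change of -0.45 (SE 0.187, adjusted p = 0.0907; -0.43 without vehicle replicate 3) that was not called although no TP-472 library reached the vehicle range.

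PCDHAC1, the other alpha gene of C type, went the opposite way from PCDHAC2. It had 6, 3, 6 and 2 counts in the vehicle libraries and 22.778, 22, 13 and 21 counts in the TP-472 libraries, that is, 0.120 ± 0.0583 and 0.531 ± 0.118 CPM. The groups did not overlap, although all values were low. It reached the looser filter in the 4 TP-472 libraries and in no vehicle library, so it entered the test only through the group where it is high. The fit gave a log2 fold change of 2.11 (SE 0.395, adjusted p = 0.00414), or 2.31 without vehicle replicate 3, which is a description of these low counts. PCDHA10 overlapped between the groups, with 0.7185, 0.516, 0.6352 and 0.3083 CPM in vehicle and 1.007, 0.3373, 0.4428 and 0.5797 CPM with TP-472 (log2 fold change 0.12, SE 0.397, adjusted p = 0.827, or 0.19 without vehicle replicate 3).

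The 12 other alpha members had too few counts to be tested with either filter. PCDHA2 had no count in any vehicle library and 4.104, 2, 3.469 and 3.595 counts in the TP-472 libraries, and PCDHA3 had 0, 0, 0 and 1.543 counts against 6, 4.706, 5.397 and 3. No fold is given for values this near to 0. PCDHA14, which has no sequence word of its own, had 8.181 and 5.085 counts in TP-472 replicates 1 and 3 and none elsewhere, so its counts cannot be assigned to it with certainty.

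The makeup of each cluster differed between the groups as well. As a share of its cluster's counts, PCDHB2 went from 37.4% ± 2.04 in vehicle (range 34.7 to 39.6) to 52.8% ± 3.73 with TP-472 (range 49.2 to 57.1), while PCDHB11 went from 23.4% ± 2.98 to 15.6% ± 2.08. The ranges of neither gene overlapped. In the alpha cluster, PCDHAC2 went from 56.7% ± 3.33 to 40.1% ± 6.66 and PCDHAC1 from 1.82% ± 0.873 to 9.14% ± 2.73, also with no overlap. In the gamma cluster PCDHGB7 had the largest mean share in vehicle and PCDHGC5 with TP-472. PCDHGB7 went from 29.2% ± 3.55 to 24.1% ± 1.36 and PCDHGC5 from 23.3% ± 2.58 to 27.4% ± 3.24, with overlapping ranges. In vehicle replicate 3 PCDHGC5 stood above PCDHGB7 (17.76 against 16.43 CPM). PCDHGC4 went from 2.86% ± 1.22 to 0.973% ± 0.453. Leaving out vehicle replicate 3, the vehicle shares were 38.3% for PCDHB2, 22.1% for PCDHB11, 57.5% for PCDHAC2, 1.52% for PCDHAC1, 30.9% for PCDHGB7, 22.3% for PCDHGC5 and 2.27% for PCDHGC4. Shares of a cluster are tied to each other, since a fall in one raises the others, and were not tested.

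**Figure D4:**
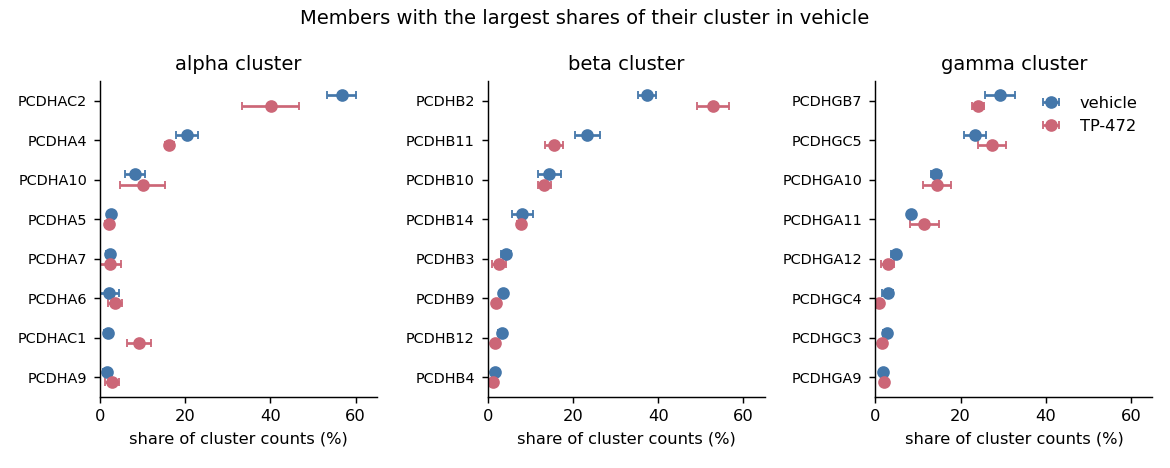
Share of the cluster's counts (horizontal axes, percent, mean ± SD over 4 libraries) held by the 8 members of each cluster with the largest share in vehicle, for vehicle and TP-472. PCDHB2 moves up from 37.4 to 52.8% of the beta counts, and PCDHAC2 moves down from 56.7 to 40.1% of the alpha counts.

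Levels can be compared between genes only per length. Per kilobase of the longest coding transcript, PCDHB2 was the highest member in vehicle at 3.13 CPM per kb, followed by PCDHGB7 at 2.77, PCDHGC5 at 2.32, PCDHB11 at 1.93, PCDHB10 at 1.51 and PCDHGA10 at 1.42 CPM per kb. PCDHAC2, the highest alpha member by CPM, stood at 0.624 CPM per kb. With TP-472 the order was PCDHB2 at 2.44, PCDHGC5 at 0.927, PCDHGB7 at 0.805, PCDHB10 at 0.774, PCDHB11 at 0.710, PCDHGA10 at 0.499 and PCDHAC2 at 0.400 CPM per kb. The vehicle order was the same without replicate 3, with PCDHB2 at 3.17, PCDHGB7 at 2.55, PCDHGC5 at 1.85, PCDHB11 at 1.80, PCDHB10 at 1.59 and PCDHGA10 at 1.19 CPM per kb. PCDHB2 was thus the one member over 1 CPM per kb in the treated cells among these.

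Other genes of the adhesion family were set beside the clusters. Of 22 nonclustered protocadherins and related large cadherins, 6 passed the filter of 1 CPM, and 3 were called lower and none higher, with a median log2 fold change of -0.69, beside 14.9% of all genes called lower and 12.0% higher. PCDH1 fell from 79.9 ± 20.6 to 32.0 ± 0.946 CPM (log2 fold change -1.32, SE 0.169, adjusted p = 7.71e-04), DCHS1, a giant cadherin of planar cell polarity, by 2.03 and PCDH15, a component of hair cell tip links, by 0.99. FAT1, with the highest CPM of them at 390.6 CPM in vehicle, was at 0.04. With the looser filter 13 were tested, and 3 were called lower and 2 higher, beside 14.3% and 12.3% of all genes. The median of the 13 was 0.04. Those called higher were PCDH19 (log2 fold change 3.23, SE 0.719, adjusted p = 0.00898) and FAT4 (1.93, SE 0.375, adjusted p = 0.00496), which reached that filter in all 4 TP-472 libraries and in 0 and 1 vehicle libraries. PCDH1, DCHS1 and PCDH15 gave -1.13, -1.62 and -1.07 without vehicle replicate 3. Of 19 classical and type II cadherins, 4 were tested and 3 called lower, CDH24 (-1.26), CDH11 (-0.77) and CDH3 (-0.62), whereas CDH2, the N-cadherin, gave 0.11 (adjusted p = 0.571). Without vehicle replicate 3 the change of CDH3 was -0.58, which is under 1.5-fold. This left 2 called lower, CDH24 and CDH11, each at -0.89, beside 13.4% of all genes. CDH11 was over 1 CPM in 4 vehicle libraries and 1 TP-472 library. It was near the threshold with all libraries (adjusted p = 0.0465), and its call was lost with the looser filter (0.0562), without a filter (0.101), with DESeq2 (0.0540) and with the replicate block (0.0803).

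All 31 genes of promoter choice, looping and silencing were tested, with 1 called higher, 4 lower (12.9%, beside 14.9% of all genes) and a median of -0.25. CTCF, which binds the promoters of these clusters, stood at 63.3 ± 3.32 CPM in vehicle and 67.0 ± 2.06 CPM with TP-472 (log2 fold change 0.08, SE 0.0884, adjusted p = 0.492). The cohesin subunits gave -0.25 (RAD21), -0.12 (SMC1A) and 0.01 (SMC3), the loader NIPBL gave -0.25, the release factor WAPL gave 0.42 and SMCHD1, a chromatin protein known to silence protocadherin arrays, gave -0.17, none of them called. The DNA methyltransferase DNMT3A fell by 1.10 (SE 0.160, adjusted p = 0.00136) and the methylcytosine dioxygenase TET1 by 0.98 (SE 0.152, adjusted p = 0.00181). The histone methyltransferase EHMT2 (-0.81) was called lower as well, and LRIF1, a partner of SMCHD1, was called higher (0.78). Without vehicle replicate 3 DNMT3A gave -0.94, TET1 -0.95 and EHMT2 -0.43, the last under 1.5-fold, and 3 of the list were called lower, beside 13.4% of all genes.

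Of 26 partners and signalling genes, 25 were tested, with 2 called higher, 6 lower (24% of those tested) and a median of -0.03, beside 12.0% of all genes called higher and 14.9% lower. The tyrosine kinase gene PTK2B, one of a pair of kinases bound by the constant tail, gave -0.95 and the other, PTK2, gave -0.25 (adjusted p = 0.0814). NLGN2, a postsynaptic adhesion molecule, gave -2.12, LRP5, a Wnt coreceptor, -1.35, NCSTN, a subunit of the gamma-secretase that cleaves protocadherins, -1.07, and the Wnt antagonist DKK1 gave 1.497. Another gamma-secretase subunit, PSEN2, was called higher (0.87). Without vehicle replicate 3, 4 of the list were called higher and 4 lower (12.0% and 13.4% of all genes), and NLGN2 gave -1.25, LRP5 -0.95 and NCSTN -0.95.

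Of 20 genes beside the clusters on chromosome 5, 17 were tested, with 3 called lower (17.6%, beside 14.9% of all genes), none higher and a median of 0.24. ARAP3 (-1.51), TMCO6 (-0.83) and FCHSD1 (-0.67) were called lower, and without vehicle replicate 3 the last 2 were under 1.5-fold, ARAP3 gave -1.13 and RELL2 was called higher (0.63). TAF7, which lies between the beta and the gamma genes and encodes a subunit of the general transcription factor TFIID, gave 0.46 (SE 0.136, adjusted p = 0.0295), again under 1.5-fold.

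**Figure D5:**
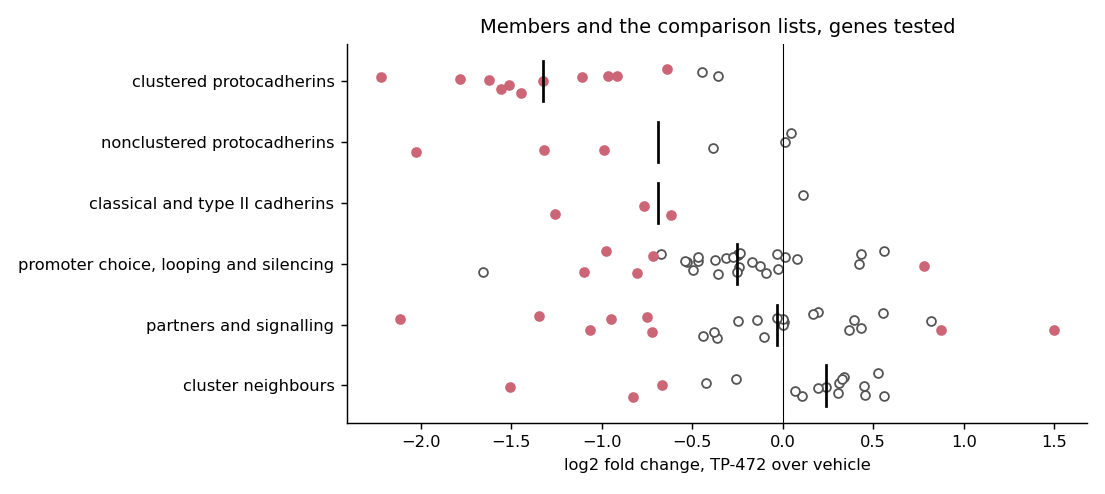
Log2 fold change of TP-472 over vehicle (horizontal axis) for the tested genes of the clustered protocadherins and of the 5 comparison lists, filled where called and open where not, with a black bar at each list's median. The medians are -1.32 for the 13 clustered members tested, -0.69 for the nonclustered protocadherins, -0.25 for the promoter choice list and 0.24 for the cluster neighbours. Among the 13, PCDHB3, PCDHB9 and PCDHGA12 passed the filter in the vehicle libraries alone, so their median cannot be read as support.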

How the data were processed

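RNA from 4 vehicle and 4 TP-472 samples of SK-UT-1 cells was sequenced from strand-specific total RNA libraries, and the authors estimated transcript abundance with Salmon 1.4.0 and summed it to genes of GRCh38. The deposited values are estimated counts per gene, neither normalised nor filtered. Counts were rounded to whole numbers, scaled by TMM and compared between the groups by edgeR's quasi-likelihood test (edgeR 4.0.16, R 4.3.3). Genes entered at over 1 CPM in 4 or more libraries, and p-values were adjusted by Benjamini-Hochberg over all of them. The SE is the fitted log2 fold change divided by the root of F. The looser filter was filterByExpr with a minimum count of 10. On simulated counts for TP-472 against vehicle over 14073 genes, 55 of 100 genes changed 2-fold and 97 of 100 changed 4-fold were called, with 12 false calls among 13873. Alternatives were DESeq2 1.42.0, limma 3.58.1 with voom, other scalings and filters, unrounded counts, a replicate block and each library left out. Annotation came from a GENCODE release earlier than the authors', joined by gene ID, with all 54 members matched. Named members are those called, the 3 highest of each cluster, the C types and the extremes of change. Members and lists were chosen with earlier results of these data known. The copy check found no pair of libraries alike within sampling noise. The values of 1 gene of the lists and 1 promoter window are not reported here, although counts include them.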

Additional observations from a re-analysis of the deposited data

Results flagged for a closer look

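A library was taken as far from the others of its group by Dixon's ratio, its gap to the nearest library divided by the group's range. The limit was the 95% critical value for 4 values (0.829). Of 40 groups of 4 libraries examined, over the cluster sums and the named members, 2 stood out, and chance alone flags about 1 in 20. The summed level of the beta cluster was lowest in vehicle replicate 2, at 30.93 CPM, with the nearest vehicle library at 35.35 CPM. PCDHGC4 was highest in vehicle replicate 3, at 3.147 CPM, with the nearest vehicle library at 1.078 CPM, and this is the vehicle library that stood apart from its group over all genes.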

How the results depend on the processing

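The cluster sums kept their direction under every scaling tried and with each library left out, and the alpha sum over only the members past the filter was -0.59 on the log2 scale, against -0.15 over all members. Called members changed as follows. Of all genes tested, 12.3% were called lower and 11.4% higher with DESeq2, 8.13% and 7.21% without a filter, 14.5% and 11.4% with the stricter filter, 21.7% in either direction with the replicate block, and 9.86 to 17.0% lower with each library left out. In the alpha cluster, 1 called member became 3 with DESeq2 (2 higher, 1 lower), 2 with filterByExpr (1 higher, 1 lower), 2 without a filter, both higher, and 0 with the replicate block. With each library left out the number ran from 0 to 1. In the beta cluster, 5 became 8 with DESeq2 and without a filter, 3 with the stricter filter of 2 CPM and 3 with the replicate block, and with each library left out it ran from 3 (without TP-472 replicate 2) to 5. In the gamma cluster, 5 became 14 with DESeq2 and 13 with filterByExpr and without a filter, which test more members, and with each library left out it ran from 4 to 5. With filterByExpr, leaving out each library gave 4 to 7 beta and 9 to 14 gamma members called, all lower, beside 9.24 to 16.1% of all genes. In the alpha cluster the same fits gave 1 member called higher each time, beside 9.34 to 12.9% of all genes, and 0 to 1 called lower. PCDHA10 changed sign, at -0.07 without vehicle replicate 4 and -0.26 without TP-472 replicate 1 (range -0.26 to 0.31 with each library left out), and was called in none. PCDHAC2, PCDHB3, PCDHB14 and PCDHGA11 lost their call with the replicate block (adjusted p = 0.0782, 0.0589, 0.0604 and 0.0595) and with 1 or more libraries left out. Same-numbered libraries deviated from their group means with correlations of -0.055, 0.116, -0.171 and -0.177, and the block was not the main model. Vehicle replicate 3, which stood apart, is part of the vehicle mean and so enters the deviations of every vehicle library. These correlations therefore cannot show that the libraries were unpaired. Under the replicate block 7 members were called. Members under about 10 counts in every library were tested with neither the filter of 1 CPM nor the looser one. Among these, PCDHA2 was called higher with DESeq2 (adjusted p = 0.0308) and without a filter (0.0278). It had at most 4.104 counts in any library, so these calls rest on values near 0.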

Other observations

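The pseudogenes inside the clusters fall outside the naming rule and were looked at after their values had been seen. PCDHGB8P, in the gamma array, measured 2.432, 2.207, 2.945 and 1.401 CPM in vehicle and 0.5421, 0.4779, 0.6918 and 1.186 CPM with TP-472, without overlap (log2 fold change -1.63, SE 0.336, adjusted p = 0.00666). Of the TP-472 libraries only replicate 4 was over 1 CPM for PCDHGB8P, so it entered the test through the vehicle group. PCDHGB9P, tested with the looser filter alone, gave -1.76 (SE 0.399, adjusted p = 0.00981). As both were looked at after their values had been seen, these p-values cannot be read as support. In the beta array PCDHB17P had 2.015, 1, 9.124 and 1.003 counts in vehicle and none with TP-472, PCDHB18P had 10, 1, 3 and 4 counts against 0, 0, 2 and 0, and PCDHB19P had 6, 6, 11 and 3 counts against 0, 1, 0 and 2. These transcripts share sequence with their neighbours, and how reads were divided between them was not tested.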
